A study of Mus musculus with 22 samples.

Results

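The loops described here are the structural loops of mouse erythroblasts that still had a loop strength of at least 1.8 in mid-G1 when CTCF was degraded during exit from mitosis. They were selected on measured values: a loop had to be labelled structural by the authors and to reach 1.8 in mid-G1 both without and with auxin. Of 16370 loops in all, 4837 are structural, 3572 of these reached 1.8 without auxin, and 504 also did so with auxin (10.4% of the structural loops, 95% Wilson interval 9.59 to 11.3%, which covers counting error only). Loop strength is the ratio of observed to locally expected Hi-C contacts at the summit of a loop and the pixels bordering it, so that 1 means no enrichment over the surroundings. The name that these loops resist the loss of CTCF holds only in part. In mid-G1, 317 of the 504 were at least 1.5-fold weaker with auxin, and 168 were at least 2-fold weaker, so they are called retained loops here, for their strength after auxin. The name does not refer to the authors' calls of loops with and without auxin, by which 66 of the 504 were called in both and 431 without auxin alone.

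In the model of loop extrusion, cohesin complexes draw in chromatin from both sides until they meet CTCF bound in a facing orientation, which leaves a loop with a CTCF site at each foot. CTCF leaves most of its sites in mitosis and returns to them as cells exit it. Enhancers and promoters, together called cis-regulatory elements (CREs), can also contact each other without CTCF. Structural loops have peaks of CTCF and cohesin at both anchors and a CRE at no more than 1 of them, dual-function loops have both at both anchors, and CRE loops have CREs at both anchors but not CTCF and cohesin at both.

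The cells were G1E-ER4, an erythroblast line derived from mouse embryonic stem cells without GATA1 and carrying GATA1 fused to the estrogen receptor, in all groups. Each CTCF allele is fused to a degron that auxin activates and to mCherry, and a retrovirus supplies OsTiR, the plant protein that lets auxin mark the fusion for degradation; all groups, including those without auxin, carry both. The virus also carries GFP, which in the ana/telophase cells is fused to a mitotic degron for sorting. All cells were arrested with nocodazole. Prometaphase cells were taken at 0 min, ana/telophase cells at 30 min by the sample titles (the treatment protocol in the sample labels gives another time), early-G1 cells at 60 min and mid-G1 cells at 120 min after release, each without auxin or with auxin added late in the arrest and kept through release. They were then sorted, and the 18 in situ Hi-C libraries of these 8 groups were 3 for each mid-G1 group and 2 for each other group. The authors merged the libraries of a group into 1 map, so each loop has 1 value per group, with no replicate error, and differences between treatments were not tested here. The number of contacts behind a single loop is unknown, and whether CTCF remained at single anchors with auxin was not analysed here.

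CTCF recognises a long DNA motif, and the sites below are shown because they lie at the feet of the retained loops that were strongest with auxin. Each anchor was read as a window of 30 kb around the middle of the loop summit in the mm9 genome. A 12-letter core of the CTCF motif was searched on both strands; an exact match is a description and not a measured site. Such a match was present in 46.4% of 9674 anchor windows of structural loops and in 12.98% of 84843 tiles of 30 kb covering the genome. Of the 8 loops described first below, 5 had a match in at least 1 window. The matches are given 5′ to 3′ on the strand named, with the core in capitals and 9 bases on each side.
chromosome 2 loop, upstream anchor, chr2:172303515-172303544, plus strand: cttatatggCCACTAGGTGGCagacaaagc
chromosome 2 loop, downstream anchor, chr2:172821925-172821954, minus strand: aagctttcgCCAGCAGAGGGCagccttgac
chromosome 4 loop, downstream anchor, chr4:124352470-124352499, minus strand: ggaaagagcCCAGCAGGTGGCgctgctgcc
chromosome 8 loop, downstream anchor, chr8:36532209-36532238, minus strand: tcatccttaCCAGTAGAGGGCgctccagct
chromosome 8 loop, downstream anchor, chr8:36542467-36542496, plus strand: ctatggcagCCAGCAGAGGGCatcgatctc
chromosome 14 loop, downstream anchor, chr14:121854908-121854937, minus strand: acacagtgaCCAGCAGAGGGCgccaacagt
chromosome 9 loop, upstream anchor, chr9:40613549-40613578, minus strand: caaggctggCCACTAGGTGGCagtttaaca
chromosome 9 loop, upstream anchor, chr9:40614630-40614659, plus strand: cgtctttgtCCAGCAGATGGCagtggtagc

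On chromosome 2 the matches at both feet point towards each other, the orientation in which CTCF is known to halt cohesin. Of the sites on chromosome 8, the first lies in an exon and the second in an intron of Eri1, which encodes an exoribonuclease that trims histone mRNA and 5.8S rRNA. The other sites overlap no protein-coding gene. The windows of the loops on chromosomes 15, 3 and 7 held no exact match. Nor did the upstream windows on chromosomes 4, 8 and 14 or the downstream window on chromosome 9.

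In mid-G1, the stage used to choose them, the retained loops had a median strength of 3.62 without auxin (quartiles 2.86 and 4.74) and 2.03 with auxin (1.89 and 2.32). Their log2 changes had a median of -0.79 (quartiles -1.11 and -0.45, range -2.44 to 0.37), and 20 loops were stronger with auxin. At least 1.5-fold weakening was seen in 317 retained loops (62.9%), against 36.7% of all loops with a ratio in mid-G1. Both strengths of this stage entered the rule, so these values are a description, and nothing is read from the difference in shares. The members just inside the threshold had a mid-G1 strength with auxin of 1.801 on chromosomes 6, 11 and 9. The comparison loops just outside it had 1.799 on chromosome 19 and 1.796 on chromosomes 16 and 14, so that the groups meet at the limit without a gap.

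**Figure D1:**
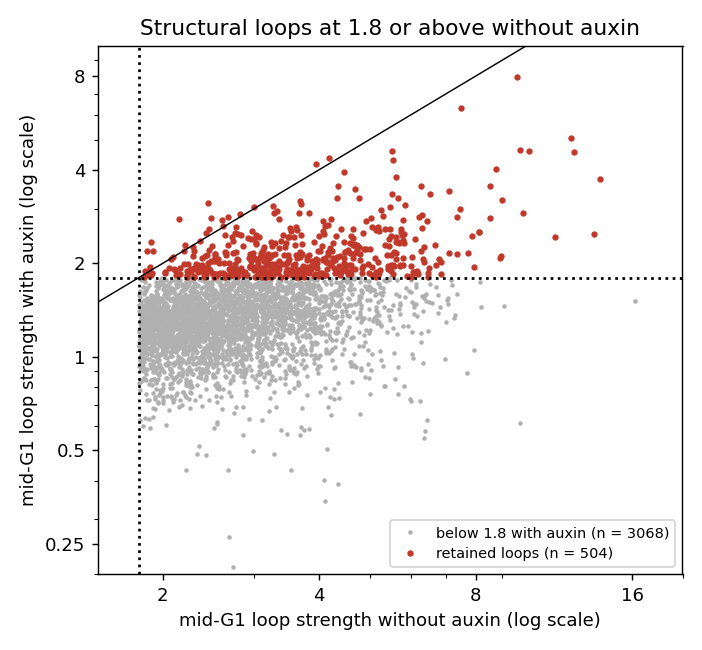
Each point is a structural loop with a strength of at least 1.8 in mid-G1 without auxin, with that strength on the x axis and its strength with auxin on the y axis, both as observed over locally expected contacts on log scales. The 504 retained loops (red) lie above the dotted line at 1.8 that chose them, most of them below the solid line of equal strength, and 3068 loops (grey) lie under the limit.

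Each retained loop was paired with a different structural loop that reached 1.8 without auxin and not with it, with the pairs chosen jointly to be closest in mid-G1 strength without auxin and in size. The median strength without auxin was 3.62 in both groups, and the median size was 377.5 kb for retained and 380.0 kb for matched loops. The 6 maps that the rule did not use, and 7 features of the anchors, were compared over the 504 pairs with an exact two-sided sign test, adjusted over these 13 comparisons by the method of Benjamini and Hochberg. Loops share maps and, often, anchors, so that the p-values treat as independent what is not and say nothing about the spread between cultures.

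With auxin, the retained loops were already stronger than their matched loops in ana/telophase. Their median strength there was 1.62, against 1.22 for the matched loops, and the median paired log2 difference was 0.39 (95% interval 0.34 to 0.45; higher in 408 of 504 pairs; exact sign test, adjusted p = 5.54e-46). In early-G1 with auxin the medians were 1.83 and 1.29, and the paired log2 difference was 0.49 (0.45 to 0.55; higher in 425 pairs; exact sign test, adjusted p = 3.31e-57). The direction was that of all pairs on 19 of 20 chromosomes at both stages. Early-G1 thus gave a second reading of the loops after CTCF loss: 263 of the 504 retained loops (52.2%, 95% Wilson interval 47.8 to 56.5%) reached 1.8 there with auxin, against 43 of the matched loops (8.53%, 6.40 to 11.3%), 8.37% of all structural loops and 23.4% of all loops. The other 241 retained loops did not. The groups were set apart on mid-G1 strength with auxin. A difference of the same direction would follow in the other maps with auxin wherever their values move together. How much of the difference is of that kind was not tested.

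Without auxin the same pairs differed by less. In ana/telophase the medians were 2.33 and 2.102 (paired log2 difference 0.15, 95% interval 0.11 to 0.19; higher in 338 pairs; exact sign test, adjusted p = 4.71e-14), and in early-G1 they were 3.07 and 2.86 (0.12, 0.10 to 0.16; higher in 341 pairs; adjusted p = 7.00e-15). The pairs were matched on 1 measured mid-G1 value without auxin, which has no replicate error. The loops from which the matched ones were drawn had a lower median for that value, at 2.58. With 3 matched loops per member, the paired log2 differences without auxin were larger, at 0.22 for ana/telophase and 0.23 for early-G1. How much of the differences without auxin comes from the matching itself was not tested. Prometaphase showed a small difference too. The medians were 1.18 and 1.11 without auxin (0.09, 0.02 to 0.15; exact sign test, adjusted p = 0.00405) and 1.08 and 1.02 with auxin (0.11, 0.04 to 0.17; adjusted p = 0.000115), near the level of no enrichment. Without loops at 1.5 or above in prometaphase these differences were 0.06 and 0.04.

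**Figure D2:**
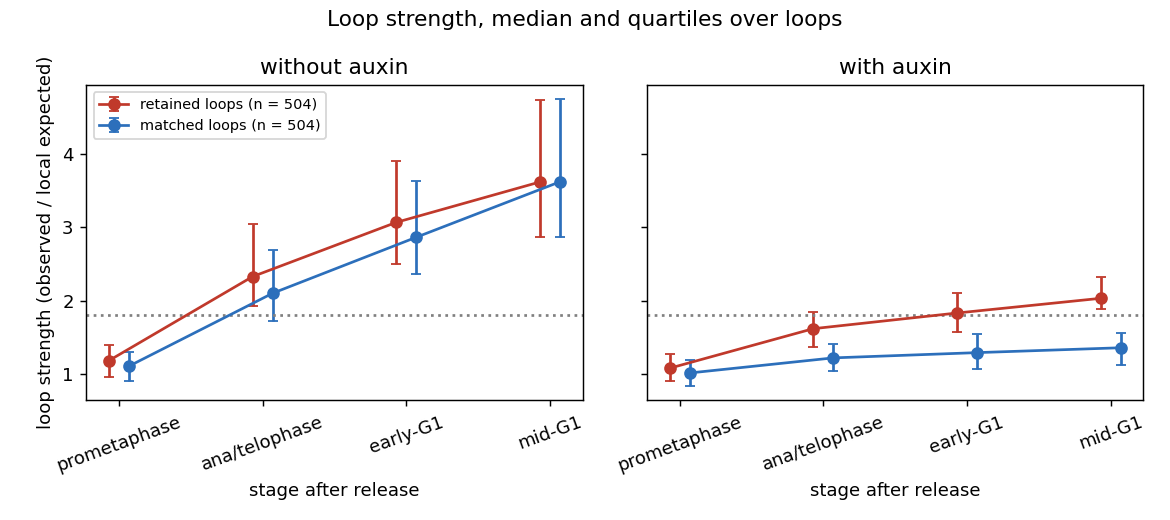
Loop strength (observed over locally expected contacts) is plotted for the 4 stages without auxin (left) and with auxin (right), as the median (points) and quartiles (bars) over 504 retained and 504 matched loops. Without auxin both groups rise to a median of 3.62 in mid-G1, while with auxin the retained loops reach 2.03 and the matched loops 1.36; the dotted line is the limit of 1.8, which fixed the mid-G1 values.

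**Figure D3:**
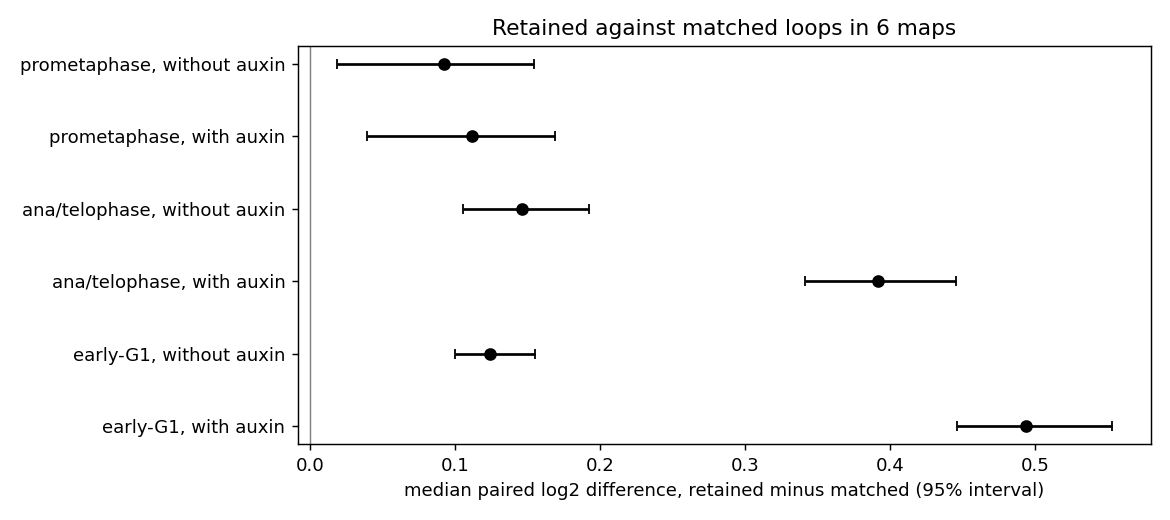
The median log2 difference in strength between a retained loop and its matched loop (x axis) is shown for the 6 maps not used to choose loops, with exact 95% intervals over 504 pairs. All 6 intervals lie above 0, and those of the ana/telophase and early-G1 maps with auxin, at 0.39 and 0.49, lie above the other 4.

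Retained loops still lost strength with auxin at each stage after prometaphase. Between prometaphase maps their median log2 change was -0.11, and 83 of 504 (16.5%) were at least 1.5-fold weaker, against 9.52% of all loops. The median change was -0.56 in ana/telophase, where 243 (48.2%) were at least 1.5-fold weaker, against 20.4% of all loops. In early-G1 it was -0.75, and 325 (64.5%) were at least 1.5-fold weaker, against 31.4% of all loops and 440 of the 504 matched loops (87.3%). The share that weakened among retained loops was thus above that of loops of all categories and below that of their matched loops. Put as levels, a retained loop kept a median of 59.6% of its early-G1 strength, a matched loop 44.0%, a structural loop of any strength 61.0% and a loop of any category 80.4%. Of all structural loops, 41.6% in ana/telophase and 61.3% in early-G1 were at least 1.5-fold weaker, so retained loops did not weaken less often than structural loops as a whole, whose median strength without auxin was lower (2.03 in early-G1).

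The strength of retained loops was built up over time also with auxin. From prometaphase through ana/telophase to early-G1, strength rose at each step in 327 of 504 retained loops with auxin (64.9%, 95% Wilson interval 60.6 to 68.9%) and in 204 matched loops (40.5%, 36.3 to 44.8%). Without auxin the counts were 455 and 463. Stages of first detection, the authors' own calls, show the same loops from another side. Only 73 retained loops (14.5%) were called in any map with auxin, 7 of which were called with auxin alone, and 4 matched loops (0.794%) were. These calls include the mid-G1 map with auxin that chose the loops. By early-G1, which did not, 45 retained (8.93%) and 4 matched loops had been called with auxin.

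The 8 loops with the highest mid-G1 strength with auxin, among those that reached 1.8 in early-G1 with auxin and were under 1.5 in both prometaphase maps, show how different these histories were. The strongest joins chr15:40990001-41000000 with chr15:41800001-41810000, which overlap no protein-coding gene. Without auxin its strength was 0.407, 2.20, 3.24 and 4.17 from prometaphase to mid-G1. With auxin it was 1.19, 1.601, 3.43 and 4.35. From early-G1 on, this loop was as strong with auxin as without. Its matched loop, on chromosome 4, had 4.202 in mid-G1 without auxin and 1.77 with auxin, and 2.35 and 1.83 in early-G1.

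A second loop that differed little between treatments up to early-G1 joins chr14:121340001-121350000, over an exon of Ipo5, which encodes a nuclear import receptor, with chr14:121850001-121860000, over an exon of Slc15a1, a peptide transporter gene. Its strength was 1.16, 3.11, 3.68 and 4.68 from prometaphase to mid-G1 without auxin, and 1.01, 3.07, 3.40 and 3.46 with auxin. Both series stayed close together until early-G1. The matched loop, on chromosome 16, had 4.67 in mid-G1 without auxin and 1.02 with auxin. On chromosome 7, a loop from chr7:72450001-72460000, over an exon of Tjp1, which encodes the tight junction protein ZO-1, to chr7:72790001-72800000, over an exon of Tarsl2, a threonyl-tRNA synthetase-like gene, had 1.32, 2.86, 3.17 and 3.67 without auxin. With auxin it had 0.772, 1.54, 2.80 and 3.17, so that it lagged in ana/telophase and came near the level without auxin in early-G1.

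The other 5 kept a high strength but fell well short of the level without auxin. The chromosome 2 loop joins chr2:172300001-172310000, free of protein-coding genes, with chr2:172820001-172830000, over an exon of Rae1, which encodes an mRNA export and mitotic checkpoint factor. It had 1.42, 2.90, 4.22 and 5.63 without auxin and 0.954, 2.47, 2.62 and 3.80 with auxin. The chromosome 4 loop, whose foot at chr4:124350001-124360000 lies over an exon of Utp11l, had 1.05, 3.31, 6.18 and 8.53 without auxin and 1.08, 2.098, 2.37 and 3.55 with auxin. It was the strongest of the 8 in mid-G1 without auxin and kept 41.7% of that strength. Its matched loop on chromosome 13 went from 7.19 to 1.77.

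The chromosome 8 loop joins an exon of Tnks, which encodes the poly-ADP-ribose polymerase tankyrase, with Eri1. Its strengths were 0.949, 2.85, 6.58 and 6.29 without auxin and 1.05, 1.38, 2.32 and 3.55 with auxin, a late and continuing rise. The chromosome 3 loop, which starts over an exon of the lysine methyltransferase gene Setd7, had 0.893, 3.79, 5.26 and 6.54 without auxin and 1.05, 2.43, 3.66 and 3.33 with auxin. Its matched loop on chromosome 10 had 6.39 and 0.578 in mid-G1. The chromosome 9 loop, with no protein-coding gene under either summit, had 1.33, 3.00, 4.55 and 5.68 without auxin and 1.05, 2.67, 2.78 and 3.24 with auxin. In mid-G1, the 8 loops kept between 41.7% and 104.2% of their strength, and their matched loops between 9.05% and 42.2%, so that the ranges overlap slightly. The rule and the choice of the strongest fixed the mid-G1 strengths with auxin to lie apart, and thereby bear on these shares too.

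**Figure D4:**
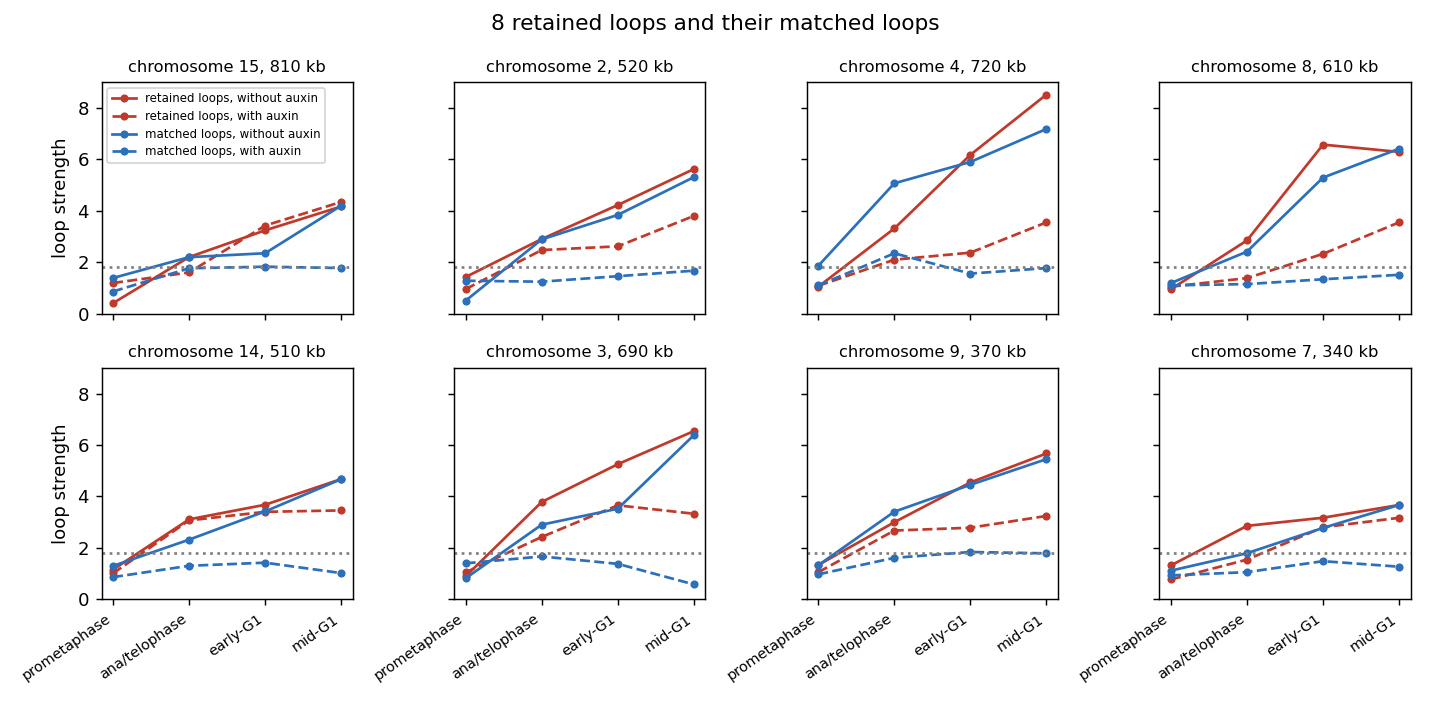
Loop strength (y axis) over the 4 stages (x axis) is shown for the 8 retained loops described in the text (red) and the loop matched to each (blue), without auxin (solid) and with auxin (dashed), 1 value per map. The dotted line marks 1.8; with auxin the chromosome 15 and 14 loops stay near their solid lines in early-G1, while the chromosome 4 and 8 loops stay far below theirs.

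At the extremes of the mid-G1 change among the 379 members under 1.5 in both prometaphase maps, the 3 with the largest values (log2 0.37, 0.30 and 0.20) were all over 1 Mb long and had 25 kb summits, on chromosomes 14, 6 and 13. Their mid-G1 strengths were 2.15, 1.90 and 1.91 without auxin, near the limit of 1.8, and 2.78, 2.34 and 2.19 with auxin. Those on chromosomes 14 and 13 were not called in any map without auxin. In early-G1, which did not choose them, the log2 changes of the 3 loops were 0.16, 0.27 and 0.12. The windows of their anchors hold the starts of Zfp395, Hnrnpf and Faf2, which encode a zinc finger protein, an RNA-binding splicing factor and a factor that takes part in the degradation of misfolded proteins. The 3 with the smallest values, on chromosomes 15, 3 and 8, had been among the strongest loops without auxin, at 13.5, 8.91 and 8.95 in mid-G1, and were at 2.49, 2.07 and 2.11 with auxin. In early-G1 their log2 changes were -2.40, -1.54 and -1.65, so these passed the limit of 1.8 while losing most of their strength.

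A share of the retained loops was enriched already in prometaphase, when loops of this kind are largely absent. At least 1 prometaphase map gave 1.5 or more for 125 of 504 retained loops (24.8%, 95% Wilson interval 21.2 to 28.8%) and for 87 matched loops (17.3%, 14.2 to 20.8%). At 1.8 the counts in prometaphase were 38 retained (7.54%) and 16 matched loops without auxin, and 32 (6.35%) and 9 with auxin. Of all 3068 loops under 1.8 with auxin in mid-G1, not matched, 332 (10.8%) had 1.5 or more in at least 1 prometaphase map. The highest retained loop was one of 100.0 kb from chr5:76440001-76450000 to chr5:76540001-76550000, over no protein-coding gene. Its strength was 7.11, 7.86, 8.11 and 9.63 without auxin and 6.98, 9.15, 7.00 and 7.93 with auxin, so it changed little with stage or treatment. The paper treats very high outlier pixels seen at every stage and in both treatments as false calls, and removed pixels called in most maps. Whether loops such as this one are of that kind was not tested. A loop from chr4:130030001-130040000, over exons of the RNA processing genes Zcchc17 and Snrnp40, to chr4:130150001-130160000, in an intron of Nkain1, had 6.04, 4.65, 4.80 and 5.53 without auxin and 5.20, 3.77, 3.95 and 4.60 with auxin. The third, from chr5:137640001-137650000 to chr5:137720001-137730000 near Ache, the acetylcholinesterase gene, did change with auxin. It had 4.59, 5.14, 9.37 and 12.4 without auxin and 3.23, 4.08, 3.75 and 4.57 with auxin. It lies inside the next in this order, which starts near Muc3 and ends near Trip6 and had 3.96, 6.48, 5.25 and 7.49 without auxin and 4.50, 4.29, 4.96 and 6.30 with auxin. The fifth was a loop within the interferon alpha cluster on chromosome 4. In its anchor windows, 32.3% of sampled 30-base words occur more than once in the genome, against a median of 8.22% for all retained loops. What such repeated sequence does to the contact counts was not tested. Without loops at 1.5 or above in prometaphase, 379 retained loops were left, and the paired log2 difference in early-G1 with auxin was 0.47.

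Size moved with retention. Of the structural loops that reached 1.8 without auxin, 87 of 1174 up to 200 kb were retained (7.41%, 95% Wilson interval 6.05 to 9.05%), 235 of 1528 over 200 and up to 500 kb (15.4%, 13.7 to 17.3%) and 182 of 870 over 500 kb (20.9%, 18.3 to 23.7%). These shares come from the rule itself and are not matched on strength. Once retained, loops of all sizes were much alike in early-G1 with auxin, with medians of 1.85, 1.78 and 1.88 from short to long. The shares that reached 1.8 there were 57.5%, 47.7% and 55.5%. The retained loops measured 80 to 1990 kb, and 479 of them had a 10 kb summit. By chromosome, between 7.07% (chromosome 17) and 21.2% (chromosome 8) of the loops at 1.8 without auxin were retained.

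Retained loops often shared anchors, as other loops did: the median number of loops of any category sharing an anchor within 20 kb was 6 for a retained loop and 5 for a matched loop. Joining members with an anchor midpoint within 20 kb of that of another gave 352 groups, of which 261 held a single loop, so 243 members shared an anchor with another. The largest, singled out after its values were seen, held 8 loops on chromosome 3, around Nes, the gene of the intermediate filament nestin, Bcan, which encodes the proteoglycan brevican, and Crabp2, which encodes a retinoic acid binding protein. Their strength was 1.84 to 2.20 in mid-G1 and 1.45 to 1.81 in early-G1 with auxin, a narrow range. Chromosome 3 carries a translocation in these cells. With 1 member kept per group, the 352 loops had a median of 1.84 in early-G1 with auxin, against 1.29 for matched loops (paired log2 difference 0.49).

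The anchors of retained loops lay near transcription starts and the anchors of CRE or dual-function loops more often than those of matched loops. An anchor of a CRE loop or dual-function loop was within 20 kb for 340 of 504 retained loops (67.5%) and 269 matched loops (53.4%). In 153 pairs the retained loop alone had such a neighbour and in 82 the matched loop alone (exact sign test, adjusted p = 9.18e-06). The difference of 14.1 percentage points was 7.43 at a threshold of 1.6. The neighbouring loops were called by the authors over all maps, including the mid-G1 map with auxin that chose the members. What that map adds to the difference was not tested. A protein-coding transcription start lay in an anchor window of 289 retained (57.3%) and 225 matched loops (44.6%; 158 pairs against 94; exact sign test, adjusted p = 0.000115). With 3 matched loops per member the shares were 57.3% and 50.1%. Over all 3068 loops under 1.8 with auxin, not matched on strength or size, 52.9% had a transcription start in a window and 56.9% a CRE or dual-function anchor nearby. The windows were also richer in GC, with medians of 45.8% and 44.8% and a median paired difference of 0.90 percentage points (95% interval 0.46 to 1.38; exact sign test, adjusted p = 4.48e-06). The features move together: when loops were matched on GC content as well, the shares with a transcription start were 57.3% and 53.0% (exact sign test, adjusted p = 0.206), while those with a CRE or dual-function anchor nearby were 67.5% and 58.5% (adjusted p = 0.00556).

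Within the retained loops, the same features went with strength in early-G1 with auxin, as a description. The 340 loops with a CRE or dual-function anchor nearby had a median of 1.86 and the other 164 had 1.74. The 289 loops with a transcription start had 1.87 and the other 215 had 1.75. Of the 73 loops called with auxin, 83.6% had a CRE or dual-function anchor nearby, against 64.7% of those not called.

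A loop of any category running in parallel, with both feet within 20 kb of those of the loop itself, was present for 192 retained (38.1%) and 153 matched loops (30.4%; 132 pairs against 93; exact sign test, adjusted p = 0.0145). This difference turned to 30.7% against 32.1% when 1 member was kept per group of members sharing an anchor (exact sign test, adjusted p = 0.89). Without chromosome 3 the adjusted p was 0.0817. The difference also missed 0.05 at a strength threshold of 2 (2.64 points, exact sign test, adjusted p = 0.699). With GC matched it was 5.95 points (exact sign test, adjusted p = 0.0682). Parallel loops, too, were called over all maps, including the mid-G1 map with auxin that chose the members.

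For the CTCF motif itself the shares were close. An exact core match was in both anchor windows of 116 retained loops (23.0%) and 114 matched loops (22.6%), with 86 pairs against 84 (exact sign test, adjusted p = 1). Where both windows had a match, a pair facing each other was possible in 84 of 116 retained loops (72.4%) and in 82 of 114 matched loops (71.9%). The 131 retained loops with no match in either window had a median of 1.90 in early-G1 with auxin, and the 116 with matches in both had 1.81. The share of repeated 30-base words was 8.22% in retained and 8.25% in matched windows (exact sign test, adjusted p = 1). With 3 matched loops per member or with prometaphase strength in the matching, it was lower in retained windows by a median of 0.72 percentage points (exact sign test, adjusted p = 0.00183 and 0.0262).

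**Figure D5:**
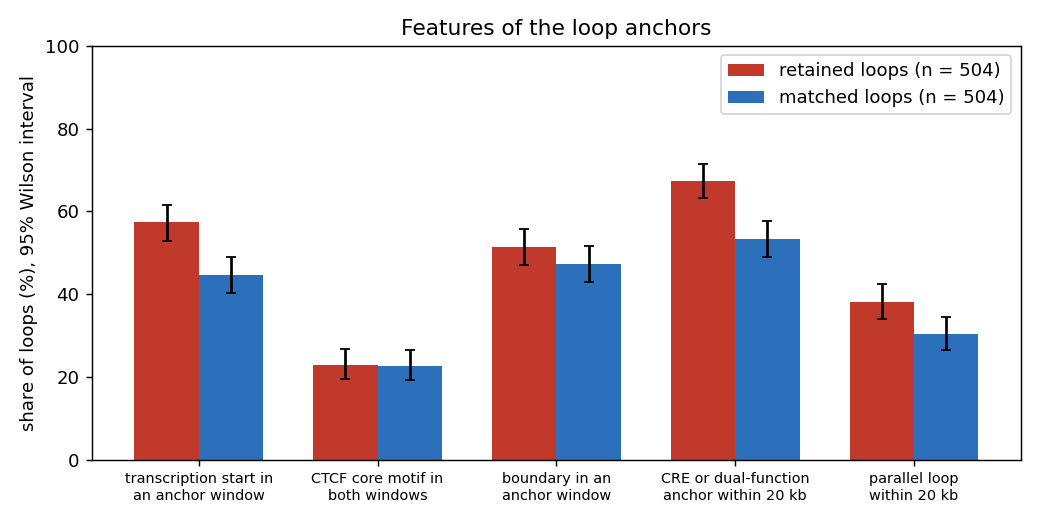
Bars give the share of 504 retained (red) and 504 matched loops (blue) with each anchor feature, with 95% Wilson intervals. The bars differ for transcription starts (57.3% and 44.6%) and for CRE or dual-function anchors nearby (67.5% and 53.4%), and are level for the CTCF core motif (23.0% and 22.6%).

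Boundaries, which separate neighbouring domains of contacts, lay in an anchor window of 259 retained (51.4%) and 238 matched loops (47.2%; exact sign test, adjusted p = 0.257). Their strength is the deposited difference in insulation score, ΔIS, which is low where contacts cross a boundary freely. At the 256 boundaries in windows of retained loops, the median ΔIS in mid-G1 was 1.06 without and 0.662 with auxin, and in early-G1 0.949 and 0.593. At the 237 boundaries in windows of matched loops it was 0.948 and 0.482 in mid-G1, and 0.847 and 0.433 in early-G1. The median log2 change in mid-G1 was -0.69 for the first, -0.93 for the second and -0.48 for all 6376 boundaries. Boundaries at retained loops were thus weaker with auxin too, with a smaller median change than those at matched loops. The mid-G1 boundary values come from the maps that chose the loops, and no test was run on them.

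Genes of erythroid cells were few at the anchors. Of a list of 48 annotated erythroid genes, the starts of 6 lay in anchor windows of 9 retained loops (1.79%, 95% Wilson interval 0.942 to 3.36%), against 2 matched loops (0.397%, 0.109 to 1.44%) and 7 of all 3068 loops under 1.8 with auxin (0.228%, 0.111 to 0.470%, not matched on strength or size). Some of the 9 retained loops share an anchor, as at Cited2 below, so the intervals treat as independent what is not. Counted by gene, there were 6 at retained loops, 1 at matched loops and 4 at all loops under 1.8 with auxin. No test was run, and nothing is read from how the intervals lie. Among the genes were Cited2, Sox6, Car2, Urod and Myc.

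Cited2, which encodes a transcriptional co-activator, was at the upstream foot of 3 retained loops on chromosome 10 that all start at chr10:17450001-17460000. The longest ends at chr10:18610001-18620000 and had 0.835, 1.49, 1.99 and 4.77 without auxin and 1.29, 1.73, 2.28 and 2.25 with auxin and was not weaker with auxin before mid-G1. The other 2 were: the one ending at chr10:17910001-17920000 had 2.83 and 3.99 in ana/telophase and early-G1 without auxin and 1.04 and 1.09 with auxin, and the one ending at chr10:17930001-17940000 had 2.38 and 3.56 without auxin and 1.45 and 1.15 with auxin. The loops at Urod, of heme synthesis, Car2, which encodes a carbonic anhydrase, and Myc, a growth-promoting transcription factor gene, fell outside the 10 loops named by rule and are given because the list is short. Their mid-G1 strengths with auxin were 1.80, 2.01 and 2.06, and in early-G1 with auxin they were 1.55, 1.74 and 1.34, all under 1.8. At the anchor near Sox6, a regulator of globin genes, they were 1.92 and 1.82.

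Developmental transcription factors were at the anchors of 7 retained loops (1.39%, 95% Wilson interval 0.674 to 2.84%) and of 6 matched loops (1.19%). They include a loop of 870 kb from the Hoxd cluster, with the starts of Hoxd3, Hoxd4 and Hoxd8 at its upstream foot, chr2:74550001-74560000, and its other foot at chr2:75420001-75430000. Its strength was 1.23, 4.35, 3.55 and 5.56 without auxin and 2.74, 2.15, 2.79 and 4.30 with auxin. The prometaphase value with auxin was above that in ana/telophase, so this loop did not follow the rising order of most others. A shorter retained loop from the same foot, to chr2:74800001-74810000, had 4.08 without and 1.15 with auxin in early-G1, and 4.39 and 1.85 in mid-G1. The forkhead factor genes Foxf1a and Foxc2 lay at separate loops on chromosome 8. The Foxf1a loop fell from 9.86 to 2.91 in mid-G1 and from 6.28 to 2.61 in early-G1, and the Foxc2 loop had 3.25 and 2.28 in mid-G1 and 2.63 and 2.16 in early-G1. Of clustered gene families, 4 retained loops and 4 matched loops (0.794% each) held a start. Of the retained ones, 3 lay in the interferon alpha cluster and 1 at the odorant receptor gene Olfr649. The Olfr649 loop had 2.31 without and 2.62 with auxin in early-G1.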

How the data were processed

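The authors aligned in situ Hi-C reads to mm9 with Bowtie2 through HiC-Pro, removed duplicates, merged the libraries of each condition and searched for loops in 10 and 25 kb bins with a changed form of HICCUPS. Loop strength was deposited as a ratio, the contacts observed over those expected from the surroundings, and the deposited boundary strength (ΔIS) is a signal that is never negative, from boundaries called with rGMAP. Loop categories and stages of detection are the authors' labels. Of 22 libraries, the 4 with triptolide were not used here. Each condition has 1 merged value per loop. The depth behind a single loop is unknown, and intervals cover counting error only.

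Loops were matched 1:1, without reuse, on log2 mid-G1 strength without auxin and log2 size (median gaps 0.011 and 0.025), within the same summit width. Pairs were compared with exact two-sided sign tests (ties left out), exact order-statistic intervals and Benjamini-Hochberg adjustment at 0.05 over 13 results; changes are log2(with / without auxin) without a pseudocount. Anchor windows (30 kb), motif matches and starts of 22380 protein-coding genes come from NCBIM37 (mm9) and GENCODE vM1. The planned repeat-masked share could not be computed, since the reference is not masked, and the share of 30-base words (every 10 bases) found more than once in the genome replaced it. Matching also on GC content was likewise added after seeing the data.

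The members and gene lists were chosen with earlier results of these data known. Loops named are the 8 strongest with auxin in mid-G1 (early-G1 with auxin at least 1.8, prometaphase under 1.5), the 3 largest and 3 smallest changes under the same prometaphase limit, the 3 nearest the threshold on each side, the 5 highest in prometaphase without auxin, and up to 10 at listed genes; the loops at 1 listed gene are not reported here. The procedure was tested on simulated data with independent loops and matching values without noise. Those tests do not cover shared anchors and maps or noise in the matched strength. Python 3.11.15, numpy 2.4.6, pandas 2.3.3, scipy 1.17.1 and pysam were used.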

Additional observations from a re-analysis of the deposited data

How the results depend on the processing

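The number of retained loops follows the threshold, with 956 at 1.6 and 265 at 2. Strength in ana/telophase and early-G1, prometaphase strength with auxin, GC content and a CRE or dual-function anchor nearby kept their direction and stayed past the threshold under every alternative run for them. These were thresholds of 1.6 and 2, 10 kb summits only, leaving out chromosome 3 or loops high in prometaphase, 1 member per anchor group, 3 matched loops per member (with a normal approximation for shares), matching also on prometaphase strength or GC, a pseudocount of 0.1, a 10 kb window and a 50 kb neighbourhood, each where it applied. Prometaphase strength without auxin missed the threshold for loops kept at 2 (log2 difference 0.13, exact sign test, adjusted p = 0.0941), and transcription starts did so when GC was matched (4.37 percentage points; 7.28 with 3 matched loops). Of differences that stayed past the threshold, 3 matched loops moved those without auxin to log2 0.22 in ana/telophase and 0.23 in early-G1, and a threshold of 2 moved prometaphase strength with auxin to 0.21. For parallel loops the difference was 2.64 points at the threshold of 2, 5.84 without chromosome 3, 5.95 with GC matched, 14.5 within 50 kb and -1.42 with 1 member per anchor group. Differences that were not past the threshold turned sign for the CTCF motif with 3 matched loops (-0.26) and with GC matched (-1.98), for boundaries at the threshold of 2 (-1.13), and for repeated sequence in a 10 kb window (0.10), with GC matched (0.31) and without chromosome 3 (0.0917). Repeated sequence passed the threshold with 3 matched loops (-0.720) and with prometaphase strength matched (-0.717). The cause of these changes was not tested. The repeat-masked share was not run, because the reference is not masked. No paired analysis was possible because the columns analysed here are merged maps that carry no replicate numbers, and for the same reason no replicate was left out; maps of single libraries were not analysed here.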
